A study of Mus musculus with 2 samples.

Results

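The complement genes of myeloid cells described here are 8 named genes, found by symbol among the 33696 genes of the deposited matrices. C1qa, C1qb and C1qc encode the chains of C1q. C3 encodes the central complement protein, Cfb encodes factor B and Cfp encodes properdin. C3ar1 and C5ar1 encode the receptors of the anaphylatoxins C3a and C5a. All 8 were measured, and they are followed across monocytes, macrophages, dendritic cells and neutrophils. The KO library came from Alb-Cre Bicd2fl/fl mice, in which Cre under the albumin promoter deletes the dynein adaptor gene Bicd2 in hepatocytes. The WT library came from Alb-WT Bicd2fl/fl mice, which carry the same floxed alleles. Both genotypes were immunised intraperitoneally with 2.5 mg of S-100, the soluble fraction of homogenised liver, mixed with complete Freund's adjuvant. This was done weekly for 3 weeks and models autoimmune hepatitis. The series text describes pooled liver immune cells from a Percoll gradient, whereas the sample labels call them peritoneal and carry a treatment tag HFD. Neither animal numbers nor ages are given in the sources used here.

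Complement is a cascade of plasma proteins that marks targets for uptake and calls in leukocytes. C1q binds antibody complexes and dying cells and starts the classical pathway. C3 is cleaved by the convertases of every pathway, factor B supplies the protease of the alternative convertase, and properdin holds that convertase together. Hepatocytes make most of the C3 and factor B in plasma, whereas C1q is made mainly by macrophages and dendritic cells, and properdin by leukocytes.

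Each genotype was measured in 1 library, so no difference below has a replicate check and no test across samples exists. The 95% intervals given account for counting error alone. After filtering and removal of doublets the KO library held 15619 cells with 42128772 unique molecular identifiers (UMIs) and the WT library 17080 cells with 65156031 UMIs. Median depth was 2003 UMIs per KO cell and 2793 per WT cell. Over all deposited barcodes, before filtering, haemoglobin took 38.7% of UMIs in the KO library and 15.4% in the WT library. In the kept cells Hba-a1, Hba-a2, Hbb-bs and Hbb-bt took 22.9% of UMIs in KO and 11.1% in WT. The 2 libraries had 107 barcodes in common. Bicd2 had 560 UMIs in kept KO cells and 1288 in kept WT cells, which are mostly immune cells and do not check a deletion in hepatocytes. Levels are CPM, the UMIs of a gene summed over a class and scaled to a total of 1000000 UMIs. Cells were clustered without any complement gene, and classes were named "X-like" from other markers. The macrophage-like class, cluster 10, held 6 of 19 macrophage markers and all 6 shared monocyte and macrophage markers, with Mertk and Axl among its 10 leading genes. The classical monocyte-like cluster held 7 of 7 markers, the nonclassical 8 of 9, and the mature neutrophil-like clusters 8 of 8.

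The members divided by cell class in both libraries. Macrophage-like cells were 2.91% of KO cells and 4.56% of WT cells, but they held 94.5% of all C1q UMIs in KO and 88.5% in WT. They also held 77.1% of the C3ar1 UMIs in KO and 77.6% in WT. Neutrophil-like cells held 55.1% of the C5ar1 UMIs in KO and 85.6% in WT, and were 9.76% of KO cells and 25.3% of WT cells. Cfp was spread over all 4 myeloid classes, the largest share being 34.8% in monocyte-like cells in KO and 41.2% in neutrophil-like cells in WT.

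**Figure D1:**
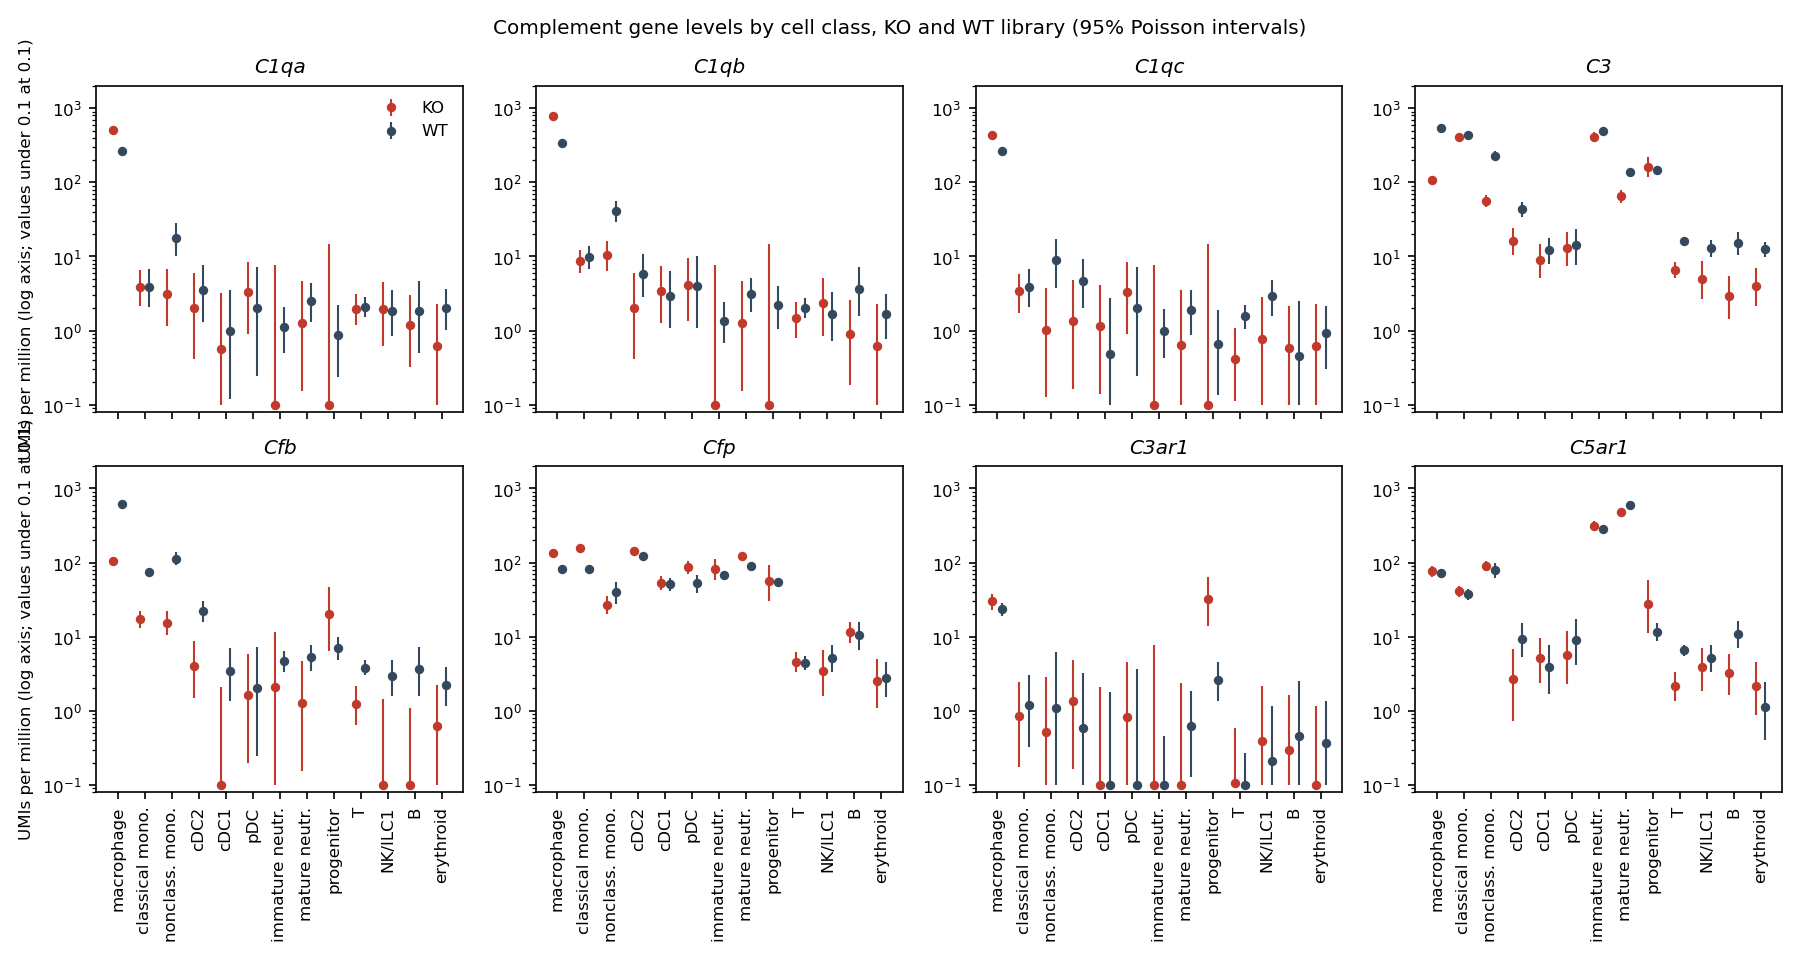
CPM (log axis) of the 8 genes in 13 cell classes, with the KO library in red to the left of the WT library in blue; points are class sums and bars 95% Poisson intervals. The C1q chains stand out in macrophage-like cells, C5ar1 in neutrophil-like cells, and the WT points lie above the KO points for C3 and Cfb in macrophage-like and nonclassical monocyte-like cells.

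The 3 C1q chains, which assemble into the recognition molecule of the classical pathway, were all higher in KO macrophage-like cells as a class. C1qa had 510 CPM in KO and 267 CPM in WT, a ratio of 1.91 (1.75 to 2.08). C1qb had 789 CPM in KO and 345 CPM in WT, a ratio of 2.29 (2.13 to 2.46). C1qc had 437 CPM in KO and 266 CPM in WT, a ratio of 1.64 (1.5 to 1.80). Summed over the chains, the level was 1736 CPM in KO and 878 CPM in WT, a ratio of 1.98 (1.89 to 2.07). The ratio was not shared by the sub-clusters that make up the class, as set out further on.

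C1qb and C1qc lie close together on mouse chromosome 4. The 250 bases before their start sites are shown because both chains were higher in the KO macrophage-like class, in lower case because none of the motifs searched was found. Sequences are from RefSeq on GRCm38.p6, 5′ to 3′ on the gene's strand.
C1qb (chr4:136886201-136886450, minus strand): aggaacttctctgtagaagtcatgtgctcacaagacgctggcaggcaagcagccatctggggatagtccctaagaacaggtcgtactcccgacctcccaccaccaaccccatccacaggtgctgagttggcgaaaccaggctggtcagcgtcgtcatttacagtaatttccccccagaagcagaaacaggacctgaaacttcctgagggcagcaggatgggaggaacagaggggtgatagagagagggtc
C1qc (chr4:136892915-136893164, minus strand): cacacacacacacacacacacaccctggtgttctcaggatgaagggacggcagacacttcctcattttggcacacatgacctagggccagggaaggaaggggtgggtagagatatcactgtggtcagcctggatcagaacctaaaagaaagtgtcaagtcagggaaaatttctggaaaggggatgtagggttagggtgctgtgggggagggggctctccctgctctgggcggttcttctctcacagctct
The motifs searched on both strands, in 250 bases before and 50 bases after each start site, were the STAT element GAS (TTCNNNGAA), the interferon element ISRE (GAAANNGAA), the Ets and IRF composite element EICE (GGAANNGAA), the C/EBP site (TTGCNNAA) and the AP-1 site (TGANTCA). ISRE and EICE letters can overlap each other. Of 32851 such windows, 8.30% held GAS, 8.56% ISRE, 8.24% EICE, 10.8% C/EBP and 7.81% AP-1 letters. RefSeq windows were matched for 6 of the 8 members, all but C1qa and Cfb.

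C1q was unevenly spread over macrophage-like cells. Of KO cells, 49.7% had no C1q UMI, against 70.7% of WT cells, and 23.3% of KO cells had at least 10, against 11.04% of WT cells. All 3 chains were seen in 26.8% of KO cells and 12.97% of WT cells. The tenth of cells with the most C1q held 61.1% of the class's C1q UMIs in KO (46 cells) and 83.7% in WT (78 cells). After every cell was thinned to 1000 UMIs, 44.5% of KO cells (39.6% to 49.4%; 50.3% before thinning) and 21.9% of WT cells (18.9% to 25.2%; 29.3% before thinning) had a C1q UMI. Thinning left out 39 KO and 99 WT cells. In B-like cells, which should lack C1q, the thinned shares were 0.237% in KO and 0.756% in WT, at median depths of 1603 UMIs in KO and 2247 UMIs in WT.

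**Figure D2:**
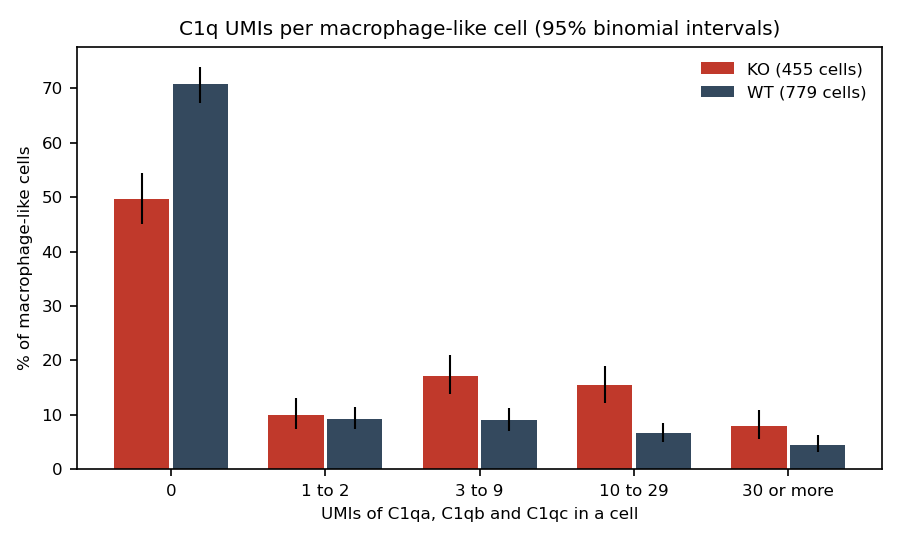
Share of macrophage-like cells (%) by their number of C1q UMIs, for 455 KO cells (red, left) and 779 WT cells (blue, right), with 95% binomial intervals. Cells without a C1q UMI were 49.7% of KO and 70.7% of WT cells, and the KO bars are higher in the bins from 3 UMIs on.

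Outside macrophages C1q was low. In nonclassical monocyte-like cells, the patrolling monocytes, the summed chains had 14.5 CPM in KO (28 UMIs) and 67.4 CPM in WT (61 UMIs), a ratio of 0.215 (0.132 to 0.341). That direction is the reverse of the one in the pooled macrophage-like class. In classical monocyte-like cells the sum was 16.02 CPM in KO and 17.7 CPM in WT, a ratio of 0.904 (0.617 to 1.32) whose interval includes equality. In the KO library the levels of classical and nonclassical monocyte-like cells were within each other's intervals. B-like cells, as a measure of free RNA, had 2.66 CPM in KO and 5.93 CPM in WT.

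Reclustering the mononuclear phagocytes, again without complement genes, split the macrophage-like class into sub-clusters of very different size in the 2 libraries. A sub-cluster led by Itga9 and by Mertk and Axl, which encode receptor kinases for uptake of dying cells, held 221 KO and 27 WT cells. A sub-cluster led by the interferon-induced chemokine Cxcl10 and by Acod1, which makes itaconate, held 27 KO and 305 WT cells. Another, led by Mmp14, Ly6i, Axl and Lpl, held 6 KO and 236 WT cells. Relative to the other mononuclear phagocytes, the Cxcl10 sub-cluster had 4 of 19 macrophage markers, the Mmp14 one 3 and the Itga9 one 9. The Cxcl10 and Mmp14 sub-clusters together held 42.7% of the class's C3 UMIs in KO and 81.6% in WT. For Cfb they held 58.7% in KO and 83.5% in WT. The sub-cluster led by Prg4 and Alox15, with 5 of 6 large peritoneal macrophage markers, held 23 KO and 11 WT cells, although Alox15 itself had no UMI in WT macrophage-like cells. A further sub-cluster, led by Marco and Clec4f, a lectin of Kupffer cells, had 17 of 19 macrophage markers and held 1 KO and 29 WT cells. The rest of the class lay in other sub-clusters, some led by markers of another cell type. The erythroid-led one held 84 KO and 6 WT cells of the class, and the T-cell-led one 32 KO and 51 WT cells. With 1 library per genotype, a sub-cluster mostly of 1 library may be that library rather than a cell type.

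Within 2 of these sub-clusters the summed C1q level was lower in KO, the reverse of the pooled class. In the Itga9 sub-cluster it was 1799 CPM in KO and 7080 CPM in WT, a log2 ratio of -1.98. In the Cxcl10 sub-cluster it was 85.7 CPM in KO and 261 CPM in WT, a log2 ratio of -1.60. In the Prg4 sub-cluster it was 5184 CPM in KO (4893 to 5489) and 4464 CPM in WT (3917 to 5066), so the intervals overlap. In the Mmp14 sub-cluster, with 6 KO cells, it was 2911 CPM in KO and 642 CPM in WT. The Marco sub-cluster had 7566 CPM in WT. The Itga9, Prg4 and Marco sub-clusters together were 53.8% of KO macrophage-like cells and held 82.9% of the class's C1q UMIs, and were 8.60% of WT cells and held 57.4%. This grouping draws on the same C1q counts, so these shares are a description. Their part in the pooled C1q level was not tested.

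**Figure D3:**
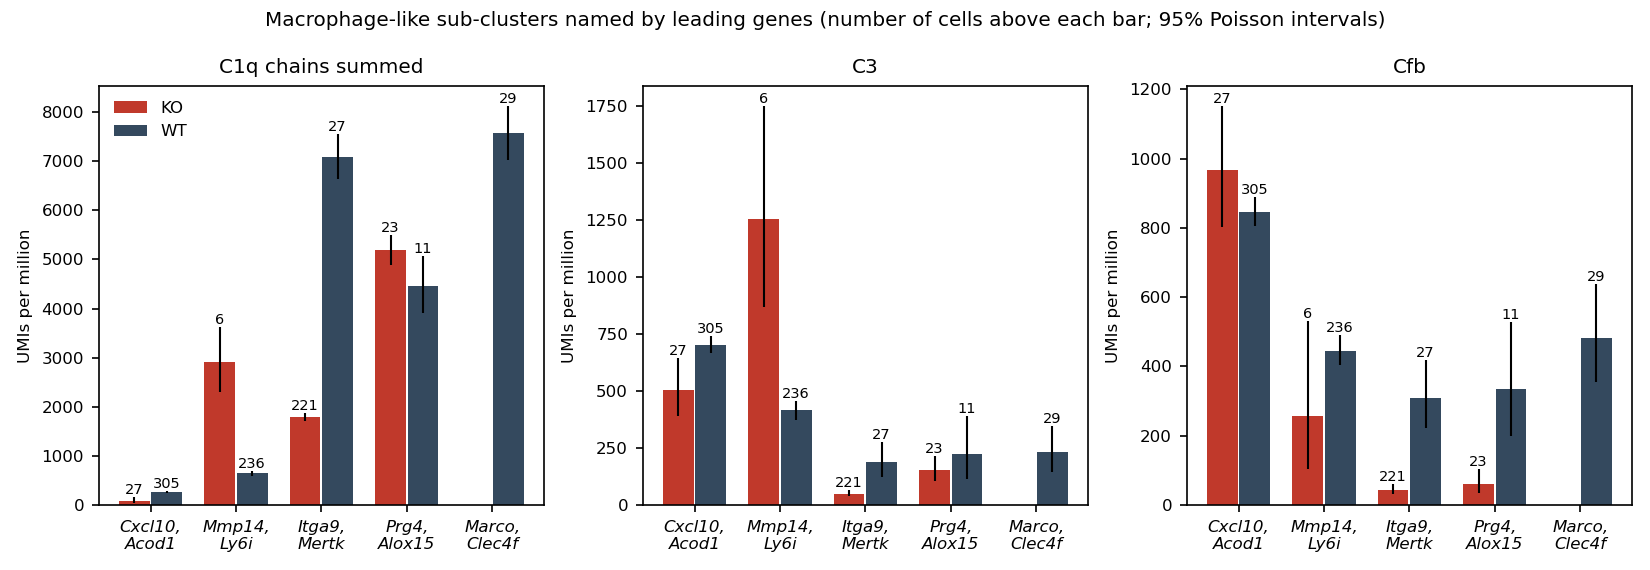
CPM of the summed C1q chains, C3 and Cfb in 5 macrophage-like sub-clusters named by leading genes, KO in red to the left of WT in blue, with 95% Poisson intervals and the number of cells above each bar; bars with fewer than 5 cells are not drawn. In the Itga9 sub-cluster all 3 panels are lower in KO, while Cfb in the Cxcl10 sub-cluster was 966 CPM in KO and 847 CPM in WT.

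C3, the protein all complement pathways cleave, was lower in KO macrophage-like cells. It had 108 CPM in KO (232 UMIs) and 546 CPM in WT (2095 UMIs), a ratio of 0.198 (0.172 to 0.227). Nonclassical monocyte-like cells had 56.9 CPM in KO and 230 CPM in WT, a ratio of 0.248 (0.195 to 0.313). Classical monocyte-like cells had 406 CPM in KO and 431 CPM in WT, a ratio of 0.942 (0.875 to 1.01) that includes equality. C3 was 5.04-fold and 4.04-fold lower in KO in the first 2 of these classes.

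Among granulocytes, immature neutrophil-like cells, which still make secondary granules, had 415 CPM of C3 in KO and 499 CPM in WT, a ratio of 0.831 (0.717 to 0.959). Mature neutrophil-like cells had 65.4 CPM in KO and 139 CPM in WT, a ratio of 0.471 (0.378 to 0.580). Both neutrophil stages together gave 148 CPM in KO and 366 CPM in WT. That pooled gap is larger than in either stage, and immature cells were 143 of 1525 KO and 1693 of 4314 WT neutrophil-like cells. In type 2 conventional dendritic-like cells (cDC2-like) C3 had 16.1 CPM in KO and 43.2 CPM in WT. The level was 164 CPM in KO and 146 CPM in WT in early myeloid progenitor-like cells, of which KO had 52.

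The order of C3 levels differed between the libraries. In KO the highest levels were in immature neutrophil-like and classical monocyte-like cells, whose intervals overlap. In WT the macrophage-like class was highest, followed by immature neutrophil-like and classical monocyte-like cells, with no overlap between neighbours. Monocyte-like cells held 65.1% of the KO library's C3 UMIs and 16.8% of the WT library's, while neutrophil-like cells held 12.6% in KO and 48.3% in WT. Free RNA also differed: B-like cells had 2.95 CPM of C3 in KO and 15.05 CPM in WT, and the neutrophil gene S100a8 had 427 CPM in KO and 1779 CPM in WT macrophage-like cells. With estimated free RNA subtracted, the log2 ratio of C3 in macrophage-like cells was -2.36, against -2.32 without subtraction.

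The 250 bases before the C3 start site are shown because they hold a match to the C/EBP letters, in capitals, which begins 45 bases before the start site. None of the other 4 motifs was found there.
C3 (chr17:57228137-57228386, minus strand): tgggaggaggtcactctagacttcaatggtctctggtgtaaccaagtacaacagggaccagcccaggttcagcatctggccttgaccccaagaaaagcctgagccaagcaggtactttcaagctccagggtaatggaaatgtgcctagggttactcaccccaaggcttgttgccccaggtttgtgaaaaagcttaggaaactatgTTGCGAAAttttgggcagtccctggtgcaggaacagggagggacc
The Cfp window held none of the 5 motifs, the C3ar1 window held AP-1 letters and the C5ar1 window ISRE letters. A match describes letters and is not evidence that a factor binds.

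Cfb, the factor B gene and an interferon-responsive gene, was lower in KO macrophage-like, monocyte-like and cDC2-like cells. Macrophage-like cells had 104 CPM in KO (223 UMIs) and 627 CPM in WT (2406 UMIs), a ratio of 0.166 (0.144 to 0.19). Classical monocyte-like cells had 17.1 CPM in KO and 74.5 CPM in WT, a ratio of 0.230 (0.171 to 0.306). Nonclassical monocyte-like cells had 15.5 CPM in KO and 113 CPM in WT, a ratio of 0.138 (0.0884 to 0.209). That KO level was not even over sub-clusters, as set out further on. In cDC2-like cells 6 UMIs in KO and 38 in WT gave a ratio of 0.182 (0.0628 to 0.433). Immature neutrophil-like cells had 1 UMI in KO and 38 in WT, and their interval of 0.0110 to 2.65 includes equality. Mature neutrophil-like cells had 2 UMIs in KO and 25 in WT, near the level of T-like cells (1.25 CPM in KO and 3.83 CPM in WT). Early myeloid progenitor-like cells had 5 UMIs in KO and 32 in WT, a ratio of 2.85 (0.868 to 7.37) that includes equality.

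Share of cells gave the same order. After thinning, 8.41% of KO macrophage-like cells (5.93% to 11.5%; 15.2% unthinned) and 37.2% of WT cells (33.6% to 41.0%; 63.9% unthinned) had a Cfb UMI. For C3 the thinned shares were 8.17% in KO (20.0% unthinned) and 38.8% in WT (69.1% unthinned). In B-like cells 0 of 1264 thinned KO cells had a Cfb UMI, which allows a share of up to 0.237%, and 0.605% of WT cells did.

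The gap in Cfb also depended on which sub-clusters were compared. In the Cxcl10 sub-cluster Cfb was 966 CPM in KO (804 to 1152) and 847 CPM in WT (806 to 890), so the intervals overlap and the KO level was not the lower one. C3 in that sub-cluster was 507 CPM in KO and 703 CPM in WT, a log2 ratio of -0.47. In the Itga9 sub-cluster both stayed lower in KO, with Cfb at 44.8 CPM in KO and 308 CPM in WT and C3 at 50.5 CPM in KO and 188 CPM in WT. In the Mmp14 sub-cluster C3 was higher in KO, with 1253 CPM in KO (868 to 1751; 34 UMIs in 6 cells) and 415 CPM in WT (375 to 458). Cfb there was 258 CPM in KO (104 to 531) and 445 CPM in WT (403 to 490). The Cxcl10 sub-cluster was 5.93% of KO macrophage-like cells and held 55.6% of the class's Cfb UMIs, and was 39.2% of WT cells and held 66.1%.

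Cfp, the gene of properdin and the positive regulator of the alternative pathway, was higher in KO in some myeloid classes. The intervals lay above equality in classical monocyte-like, macrophage-like, mature neutrophil-like and plasmacytoid dendritic-like cells. Classical monocyte-like cells had 156 CPM in KO and 80.8 CPM in WT, a ratio of 1.93 (1.67 to 2.24). Macrophage-like cells had 136 CPM in KO and 82.1 CPM in WT, a ratio of 1.65 (1.41 to 1.95). Mature neutrophil-like cells had 122 CPM in KO and 91.0 CPM in WT, a ratio of 1.34 (1.12 to 1.59). Plasmacytoid dendritic-like cells had 86.8 CPM in KO and 52.3 CPM in WT, a ratio of 1.66 (1.18 to 2.36). In cDC2-like, cDC1-like and immature neutrophil-like cells the ratios were 1.17, 1.05 and 1.18, and each interval includes equality. Nonclassical monocyte-like cells pointed the other way, with 26.9 CPM in KO and 39.8 CPM in WT, a ratio of 0.676 (0.434 to 1.06).

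Cfp in the macrophage-like class also rested on the Prg4 and Marco sub-clusters. Its log2 ratio was 0.72 with them and 0.16 without them. In the Prg4 sub-cluster Cfp had 628 CPM in KO and 112 CPM in WT, and in the Itga9 sub-cluster it had 92.4 CPM in KO and 241 CPM in WT. T-like cells, with 4.59 CPM in KO and 4.46 CPM in WT, give the background, a ratio of 1.03 (0.702 to 1.49).

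The anaphylatoxin receptor genes had ratios nearer to 1 than C3 and Cfb in macrophage-like cells. C3ar1, the C3a receptor, had 29.9 CPM in KO (64 UMIs) and 23.4 CPM in WT (90 UMIs) in macrophage-like cells, a ratio of 1.27 (0.909 to 1.77). It was also seen in early myeloid progenitor-like cells, with 8 UMIs in 52 KO cells and 12 UMIs in 500 WT cells. That gave 32.0 CPM in KO and 2.63 CPM in WT, a ratio of 12.2 (4.32 to 32.4) from few UMIs. That cluster also held 4 of 6 basophil or mast cell markers. No other myeloid class had more than 5 C3ar1 UMIs in either library.

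C5ar1, through which C5a draws in neutrophils, was highest in mature neutrophil-like cells in both libraries. There it had 485 CPM in KO and 591 CPM in WT, a ratio of 0.820 (0.756 to 0.889). Immature neutrophil-like cells had 313 CPM in KO and 285 CPM in WT, a ratio of 1.10 (0.922 to 1.29). Pooled, the neutrophil-like cells gave 444 CPM in KO and 398 CPM in WT, which is opposite in direction to the mature cells. Nonclassical monocyte-like cells had 89.5 CPM in KO and 79.5 CPM in WT, classical monocyte-like cells 41.0 CPM in KO and 37.2 CPM in WT, and macrophage-like cells 76.0 CPM in KO and 71.4 CPM in WT. All 3 of those ratios have intervals that include equality. In mature neutrophil-like cells 37.4% of thinned KO cells (39.0% unthinned) and 43.7% of thinned WT cells (59.5% unthinned) had a C5ar1 UMI, after 700 KO and 374 WT cells were left out. The thinned shares in B-like cells were 0.316% in KO and 1.06% in WT.

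**Figure D4:**
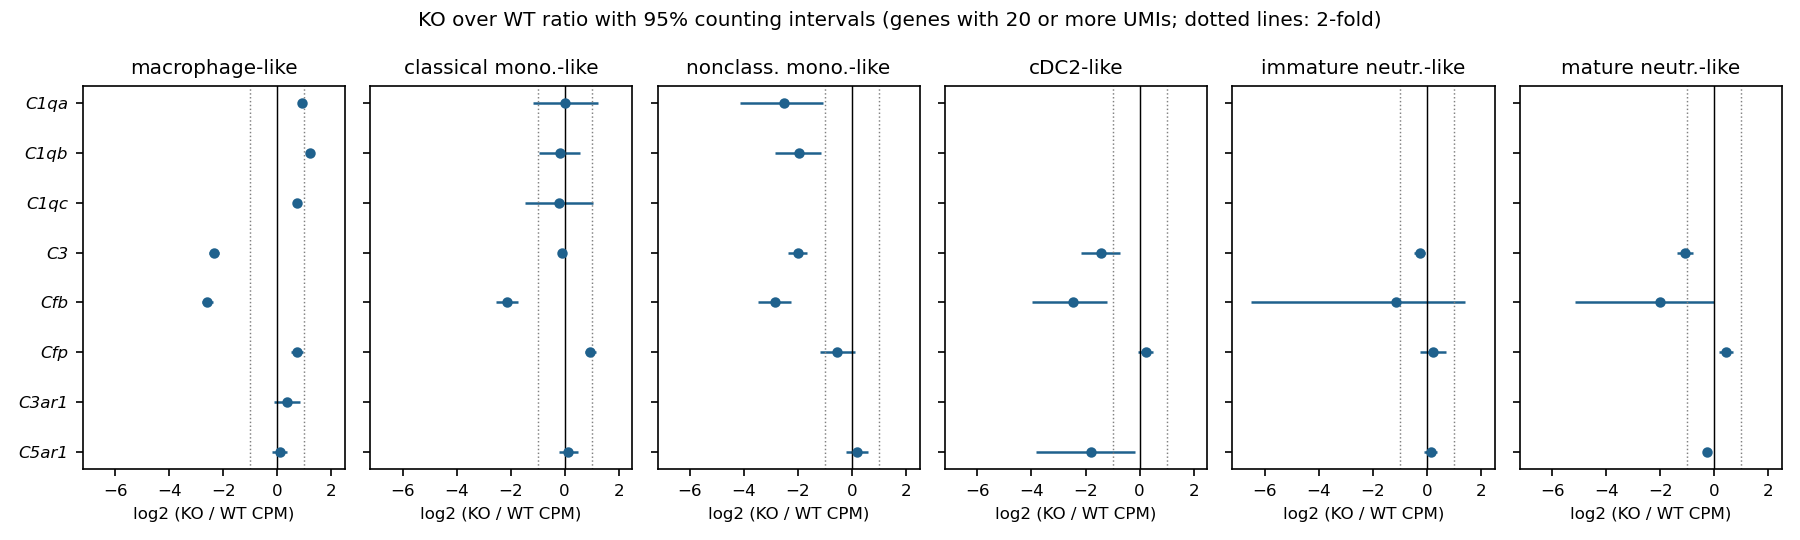
Log2 ratio of KO over WT levels of each gene in 6 myeloid classes, with 95% counting intervals, for genes with at least 20 UMIs over both libraries and at least 1 in KO; dotted lines mark 2-fold. Here 1 was not added to CPM. Cfb lies left of the lower line in all 6 classes, with only 1 KO UMI in immature and 2 in mature neutrophil-like cells. The interval of the immature cells includes equality. C1qb lies right of the upper line in macrophage-like cells.

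Counted by a 2-fold threshold on CPM plus 1, 2 of the 8 members were lower in KO macrophage-like cells, C3 and Cfb, and 1 was higher, C1qb. Of all genes with at least 20 UMIs in that class, 6.81% were lower and 3.83% higher by the same rule. In monocyte-like cells 7 members passed the minimum count and Cfb was lower, where 3.52% of all genes were lower and 2.03% higher. In nonclassical monocyte-like cells 6 passed and 4 were lower, C1qa, C1qb, C3 and Cfb, where 5.27% of all genes were lower and 3.43% higher. In classical monocyte-like cells 7 passed and Cfb was lower, where 3.68% of all genes were lower and 1.65% higher. In dendritic-like cells 5 passed and Cfb was lower, where 2.35% of all genes were lower and 2.13% higher. In cDC2-like cells 4 passed and C3, Cfb and C5ar1 were lower, where 5.19% of all genes were lower and 2.45% higher. C5ar1 there had 2.69 CPM in KO and 9.35 CPM in WT, no higher than in B-like cells, with 3.25 CPM in KO and 10.9 CPM in WT, and is background. In cDC1-like and plasmacytoid dendritic-like cells 2 passed in each and 0 differed by 2-fold, where 2.7% and 4.9% of all genes were lower and 2.52% and 2.01% higher. In neutrophil-like cells 6 passed and C3 and Cfb were lower, where 11.5% of all genes were lower and 6.65% higher. In mature neutrophil-like cells 4 passed and the same pair was lower, where 5.71% of all genes were lower and 3.99% higher. The Cfb call there ended with estimated free RNA subtracted, when its log2 ratio was 0.54. In immature neutrophil-like cells 4 passed and 0 differed by 2-fold, where 11.5% of all genes were lower and 3.93% higher. No member was higher by 2-fold in monocyte-like, dendritic-like or neutrophil-like cells.

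Monocyte-like classes also differed in sub-cluster makeup. Among classical monocyte-like cells, a sub-cluster led by Ly6a2 and Chil3 held 21 KO and 435 WT cells, and one led by Mmp19 and Vcan held 351 KO and 8 WT cells. Nonclassical monocyte-like cells included a sub-cluster led by Tgfbr3 and S1pr5 with 485 KO and 5 WT cells, and one led by Dnah12 and Smpdl3b with 6 KO and 211 WT cells. Among the classical cells C3 was 486 CPM in the KO cells of the Mmp19 sub-cluster and 457 CPM in the WT cells of the Ly6a2 sub-cluster. Cfb was 16.97 CPM in the same KO cells and 74.4 CPM in the same WT cells. Among the nonclassical cells C3 was 71.7 CPM in the KO cells of the Tgfbr3 sub-cluster and 236 CPM in the WT cells of the Dnah12 sub-cluster. For Cfb these cells had 3.54 CPM in KO and 119 CPM in WT. Those KO cells held 4 of the 30 Cfb UMIs of KO nonclassical monocyte-like cells.

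The other 40 complement genes of the list, which holds the remaining pathway proteins, receptors and regulators, were mostly near or below detection in myeloid cells. In macrophage-like cells 14 had at least 20 UMIs, of which 3 were lower and 4 higher in KO by 2-fold. Of all genes in that class, 6.81% were lower and 3.83% higher. The median log2 ratio of the 14 was 0.31, against -0.06 over all genes. The lower ones were C6, a terminal pathway protein, with 1.40 CPM in KO and 27.4 CPM in WT, the C3b receptor Vsig4 with 5.60 CPM in KO and 25.3 CPM in WT, and the C1r gene C1ra with 4.20 CPM in KO and 10.2 CPM in WT. Vsig4 and C6 are among the leading genes of the Marco sub-cluster, which had 1 KO cell.

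The higher ones in KO were Cd93, Itgax, Cd55 and C5ar2. Cd93, a receptor of phagocytes, had 126 CPM in KO and 43.8 CPM in WT, a ratio of 2.88 (2.36 to 3.51). Itgax, the alpha chain of complement receptor 4, had 128 CPM in KO and 54.4 CPM in WT, a ratio of 2.36 (1.96 to 2.83). Cd55, which speeds the decay of convertases, had 12.6 CPM in KO and 5.47 CPM in WT, and the sub-cluster led by B-cell markers had 32 KO and 5 WT cells in this class. C5ar2, the second C5a receptor, had 9.79 CPM in KO and 3.39 CPM in WT. The integrin chains Itgam and Itgb2 of complement receptor 3 had ratios of 1.09 (0.988 to 1.21) and 0.923 (0.843 to 1.01).

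In monocyte-like cells 12 of the 40 passed the minimum count, where 3.52% of all genes were lower and 2.03% higher by 2-fold. C4b, a classical pathway protein, was lower, with 2.55 CPM in KO (14 UMIs) and 25.3 CPM in WT (107 UMIs), a ratio of 0.101 (0.0534 to 0.177). None was higher by 2-fold. In classical monocyte-like cells alone C4b was lower and Cd55 higher, where 3.68% of all genes were lower and 1.65% higher. In nonclassical ones none was counted, where 5.27% of all genes were lower and 3.43% higher. In macrophage-like cells C4b had 59.7 CPM in KO and 50.3 CPM in WT, a ratio of 1.19 (0.942 to 1.49). In neutrophil-like cells 11 passed, with C4b and the ficolin gene Fcnb lower and C5ar2, Cd93 and Cd46 higher. Of all genes there, 11.5% were lower and 6.65% higher. Fcnb had 25.003 CPM in KO and 164 CPM in WT in this pooled class. By stage, C4b was lower and Cd93 higher in mature cells, and Fcnb and Itgax were lower and none higher in immature cells. Of all genes, 5.71% were lower and 3.99% higher in mature cells, and 11.5% and 3.93% in immature cells. C5ar2 and Cd46 were counted in neither stage. In dendritic-like cells 2.35% of all genes were lower and 2.13% higher by 2-fold. Of the 40, 9 passed there, and Cr2, a complement receptor of B cells, and Cd55 were higher. Summed B-cell markers in dendritic-like cells had 135 CPM in KO and 27.5 CPM in WT, with all 6 detected, and their part in this was not tested.

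The genes with the most similar pattern over 26 class sums of the 2 libraries were taken by Pearson's r of log levels among 6560 genes. The sums share library and depth, so the values are descriptions. The summed C1q chains were closest to the phagocytic receptors Mertk (0.92) and Axl (0.88) and to the lysozyme gene Lyz1 (0.85). C3 was closest to Lyz2 (0.97), Mgst1 (0.95) and Abcd2 (0.94), and Cfb to the Fc receptor gene Fcgr1 (0.92), Lpl (0.91) and Ms4a6d (0.89). Cfp was closest to Dynlt2b (0.95), Csf2rb (0.94) and Aph1c (0.93). C3ar1 was closest to Itga9 (0.75), Mrc1 (0.75) and Alox15 (0.73), and C5ar1 to Trem3 (0.96), Pilra (0.95) and Clec4e (0.94).

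RNA of other cells differed between the libraries in the macrophage-like class, in both directions. Haemoglobin took 15.6% of its UMIs in KO and 4.51% in WT. Summed T-cell markers had 107 CPM in KO and 136 CPM in WT, with all 7 detected, and B-cell markers 164 CPM in KO and 39.9 CPM in WT, with all 6 detected. Hepatocyte markers had 139 CPM in KO and 62.8 CPM in WT, with Serpina1a at 0 in KO. All 6 large peritoneal macrophage markers were detected in KO, at 1163 CPM, and 4 of 6 in WT, at 322 CPM, with Gata6 and Alox15 at 0. The 4 mesothelial and 5 stellate or fibroblast markers were at 0 in both. Their part in the results was not tested. With sub-clusters led by another cell type left out, the log2 ratios were 1.16 for summed C1q, -2.08 for C3 and -2.38 for Cfb, against 0.98, -2.32 and -2.58 in all cells.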

How the data were processed

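Immune cells were profiled by 10x Genomics 3' single-cell RNA-seq in 1 KO and 1 WT library. The authors deposited a matrix of raw UMI counts per library, which are whole numbers and not normalized. Cell Ranger 8.0.1 stands in the file headers, whereas version 6.0.1 stands in the submitters' processing notes, with Seurat 4.3.0 and mm39. The KO library held 27033 barcodes with 63869430 UMIs and the WT library 22197 with 81159013.

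Barcodes with fewer than 200 genes (9283 KO, 1919 WT) or more than 20% mitochondrial UMIs (75 KO, 111 WT) were left out. Scrublet in scanpy 1.11.5, run per library, marked 2056 KO (11.6%) and 3087 WT (15.3%) barcodes as doublets, which were removed. Cells were clustered jointly (2000 variable genes, 30 principal components, 15 neighbours, leidenalg 0.10.2 at resolution 1), without complement, immunoglobulin, T-cell receptor, mitochondrial, ribosomal, haemoglobin and sex genes, into 27 clusters. A class name needed at least 3 markers. Names were rebuilt here and are not the study's.

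UMIs were summed per library and class and scaled to CPM, with exact Poisson intervals, exact conditional binomial intervals for ratios and Clopper-Pearson intervals for shares. Log2 ratios were taken on CPM plus 1, with KO over WT. Apart from these intervals, the limit set on a count of 0 is 3 counts, or that share of the cells. A gene was counted as lower or higher past 2-fold with at least 20 UMIs. Free RNA was estimated from S100a8 and S100a9 in B-like cells. The interval procedures were tested on simulated counts. The members and lists were chosen with earlier results of these data known. Genes named are the members, the other listed complement genes, class markers, the 3 genes most correlated with each member, and leading genes of sub-clusters, which were added after their values were seen. Alternatives included scaling by TMM (edgeR 4.0.16) or size factors (DESeq2 1.42.0), other filters, pseudocounts, thinning and single clusters.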

Additional observations from a re-analysis of the deposited data

Results flagged for a closer look

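C1q changed direction between 2 classes, each taken as a whole. The log2 ratio of KO over WT was 0.93 for C1qa in macrophage-like cells and -2.19 in nonclassical monocyte-like cells. For C1qb it was 1.19 in macrophage-like cells and -1.88 in nonclassical monocyte-like cells. For the summed chains it was 0.98 in macrophage-like cells and -2.14 in nonclassical monocyte-like cells. The macrophage-like value was not shared by all sub-clusters. Summed C1q was lower in KO in the Itga9 sub-cluster, with 1799 CPM in KO and 7080 CPM in WT. It was also lower in the Cxcl10 one, with 85.7 CPM in KO and 261 CPM in WT. It was higher in others, such as the Mmp14 one, with 2911 CPM in KO (6 cells) and 642 CPM in WT. The difference between the classes was not tested, since each genotype has 1 library, and the nonclassical values rest on 28 C1q UMIs in KO and 61 in WT.

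Members were also detected in clusters that stayed unnamed and enter no comparison, above the level in B-like cells. Cluster 19, which held mature neutrophil markers and haemoglobin (409 KO and 94 WT cells), had 30.69 CPM of C3 and 53.0 CPM of Cfp in KO. Its C5ar1 level was 156.2 CPM in KO and 219.6 CPM in WT. Cluster 25, which held 8 of 8 hepatocyte markers and haemoglobin (100 KO and 44 WT cells), had 171.6 CPM of C3 in KO and 253.0 CPM in WT, with overlapping intervals. Its Cfb level in KO was 70.05 CPM, from 20 UMIs.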

How the results depend on the processing

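No paired analysis was possible because each genotype has 1 library. The cause of the shifts below was not tested. Values are log2 ratios of KO over WT unless they are counts of members past 2-fold. In macrophage-like cells, C3 kept its direction in the alternatives below, Cfb in all but 1, and the summed C1q chains in all but those within the Cxcl10 and Itga9 sub-clusters, the only ones taken alone as alternatives. In the Mmp14 sub-cluster (6 KO cells), not among them, C3 was higher in KO, with 1253 CPM in KO and 415 CPM in WT.

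Within the Cxcl10 sub-cluster (27 KO cells), the ratios of macrophage-like cells were -3.03 for C1qa, -1.96 for C1qb, -0.50 for C1qc, -1.60 for summed C1q, -0.47 for C3, 0.19 for Cfb, 0.10 for Cfp and 0.84 for C5ar1, with 0 members higher. Within the Itga9 sub-cluster (27 WT cells) they were -2.08 for C1qa, -1.60 for C1qb, -2.41 for C1qc and -1.98 for summed C1q. They were -1.88 for C3, -1.37 for Cfp and -0.65 for C5ar1, with 7 members lower and 0 higher. No share of all genes was taken within sub-clusters, so this count has no background and is not read as particular to the members. Without the Prg4 and Marco sub-clusters Cfp was 0.16 and C5ar1 -0.36, with 2 members higher. Without sub-clusters led by another cell type, summed C1q was 1.16, C3 -2.08, Cfb -2.38 and Cfp 1.02, with 3 members higher in macrophage-like and 3 lower in monocyte-like cells. These sub-cluster alternatives were chosen after seeing the data.

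With doublets kept, summed C1q was 1.10 in macrophage-like cells (2 members higher), C5ar1 -1.58 in dendritic-like cells (3 lower), and 2 members were lower in monocyte-like cells. Without cells above 10% haemoglobin, macrophage-like C3 was -2.08 and summed C1q 1.09 (2 higher), monocyte-like C3 -0.26 and Cfp 0.85 (2 lower) and dendritic-like Cfp 0.48 (2 lower). With haemoglobin genes out of the total, summed C1q was 1.16 in macrophage-like cells (2 higher) and C3 -0.28 in monocyte-like cells. Monocyte-like C3 was -0.35 under both TMM and DESeq2 scaling, which shifted all ratios of that class by 0.105 and 0.107.

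Thinned to 1000 UMIs, monocyte-like C3 was -0.68 and Cfb -2.88. Macrophage-like Cfb was -2.17, Cfp 0.42, C5ar1 0.70 and summed C1q 0.68 (0 higher). Dendritic-like Cfb was -1.16, Cfp 0.52 and C5ar1 -1.90 (0 lower), and neutrophil-like C5ar1 -0.013 (1 lower). A pseudocount of 10 gave Cfb -1.80 in monocyte-like and -0.75 in dendritic-like cells, with 0 members lower in dendritic-like and 1 in neutrophil-like cells. A minimum count of 100 gave 0 and 1 in those classes. With free RNA subtracted 1 member was lower in neutrophil-like cells, and Cfb in mature neutrophil-like cells was 0.54.

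Within single clusters, classical monocyte-like cells had C1qa 0.0086, C3 -0.086, Cfp 0.94 and summed C1q -0.14. Nonclassical ones had C3 -2.00, Cfb -2.78, Cfp -0.55 and summed C1q -2.14 (4 lower). In cDC2-like cells summed C1q was -1.24 (3 lower). Plasmacytoid ones had C3 -0.10, Cfb -0.19, Cfp 0.72 and summed C1q 0.36 (0 lower). In cDC1-like cells C3 was -0.38 and C5ar1 0.32 (0 lower). The larger mature neutrophil-like cluster had C3 -0.86 and C5ar1 -0.19 (1 lower). The smaller one had Cfp -0.34, C5ar1 -0.63 and summed C1q -2.99 (1 lower). Immature neutrophil-like cells (cluster 6) had C3 -0.32, Cfp 0.11 and C5ar1 -0.043 (0 lower).

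Unthinned shares were 50.3% in KO and 29.3% in WT for C1q, 20.0% in KO and 69.1% in WT for C3 and 15.2% in KO and 63.9% in WT for Cfb in macrophage-like cells. They were 5.79% in KO and 22.2% in WT for Cfb and 44.6% in KO and 27.1% in WT for Cfp in classical monocyte-like cells, and 59.5% in WT for C5ar1 in mature neutrophil-like cells. Depth limits C3ar1, C1q outside macrophages and Cfb in neutrophil-like cells, which rest on few UMIs.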
